A study of Mus musculus with 8 samples.

Results

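The renin-angiotensin and kallikrein genes described here were Agt, Ren1, Ace, Enpep, Mme, Agtr1a, Agtr1b, Klk1 and Bdkrb2, chosen by name for their place in these hormone systems and found by their symbols in the GENCODE M21 mouse annotation. They make up 9 of the 55401 genes listed for each kidney, and 7 of the 9 passed the filter on low counts, together with 14326 genes in all. Angiotensinogen, the product of Agt, is cut by renin to angiotensin I, which angiotensin-converting enzyme turns into angiotensin II, the peptide that raises blood pressure and acts on tubule and vessel through AT1 receptors. The kallikrein system runs beside it: tissue kallikrein, made in the connecting tubule, frees kinins from kininogen, and kinins act on B2 receptors and are destroyed in part by angiotensin-converting enzyme and neprilysin. In the kidney, renin comes from juxtaglomerular cells of the arteriolar wall, whereas the brush border of the proximal tubule is rich in the peptidases that trim and destroy angiotensin.

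Whole kidneys of 4 control and 4 SIK mutant mice were profiled by RNA-Seq. Salt-inducible kinases (SIKs) are held in check by cAMP signalling, the pathway through which parathyroid hormone acts on the tubule. Per the labels, both groups carried loxP-flanked alleles of Sik1, Sik2 and Sik3, and the mutants alone carried Six2-Cre, a Cre recombinase expressed in nephron progenitors. The labels give floxed Sik1 on both chromosomes in the mutants, but the study's text describes 1 intact Sik1 allele, so the group is called SIK mutant. Nephron cells, from the podocyte to the distal tubule, descend from Six2-expressing cells, but renin cells, vessels and the collecting duct do not, so that a whole kidney holds both recombined and intact cells. The labels give no sex, age, strain or litter. In bulk tissue, fewer cells of a type and less RNA per cell cannot be told apart.

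Depth was even, at 10179648 to 10925100 expected counts per kidney, where an expected count is the number of reads that the quantifier assigned to a gene. Levels are given as CPM, counts scaled with TMM factors to a common library total, and 3 counts were worth 0.263 to 0.304 CPM. Among the targeted genes, Sik3 ran from 58.6 to 66.5 CPM in controls and from 33.7 to 43.1 CPM in mutants (log2 fold change −0.67, edgeR FDR 0.0697), Sik2 had a log2 fold change of −0.44 and Sik1 one of 0.31. Control 3 and control 4 stood apart: the summed counts of 4 Y-linked genes were 0 and 2 in these kidneys and 789 to 1064 in the other 6. Xist, the RNA of the inactive X chromosome, was at 260 and 298 CPM in these kidneys and at most 0.49 CPM in the other 6. These are markers of sex, and they split the control group only. For 23.8% of all tested genes both of these kidneys lay above, or both below, the other 6, so the main results are also given for the 6 kidneys with Y-linked reads.

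Over the 8 kidneys, Klk1 was the member that separated the genotypes most, being lower in all 4 mutants, and the renin-angiotensin genes overlapped between the groups. None of the 7 tested members passed an FDR of 0.05 by edgeR, and neither did any gene of the whole table (0% of 14326), although 911 genes (6.36%) had an unadjusted p under that value. At that unadjusted threshold 1 of 7 members, Klk1, was lower, against 3.59% of all tested genes. The groups did not overlap in CPM for the same single gene, against 2.39% of all tested genes that were lower without overlap, 1.63% that were higher and 4.02% in both directions. Of the 7, 3 had positive and 4 negative fold changes, with a median log2 fold change of −0.19, beside −0.0038 over all genes tested.

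**Figure D1:**
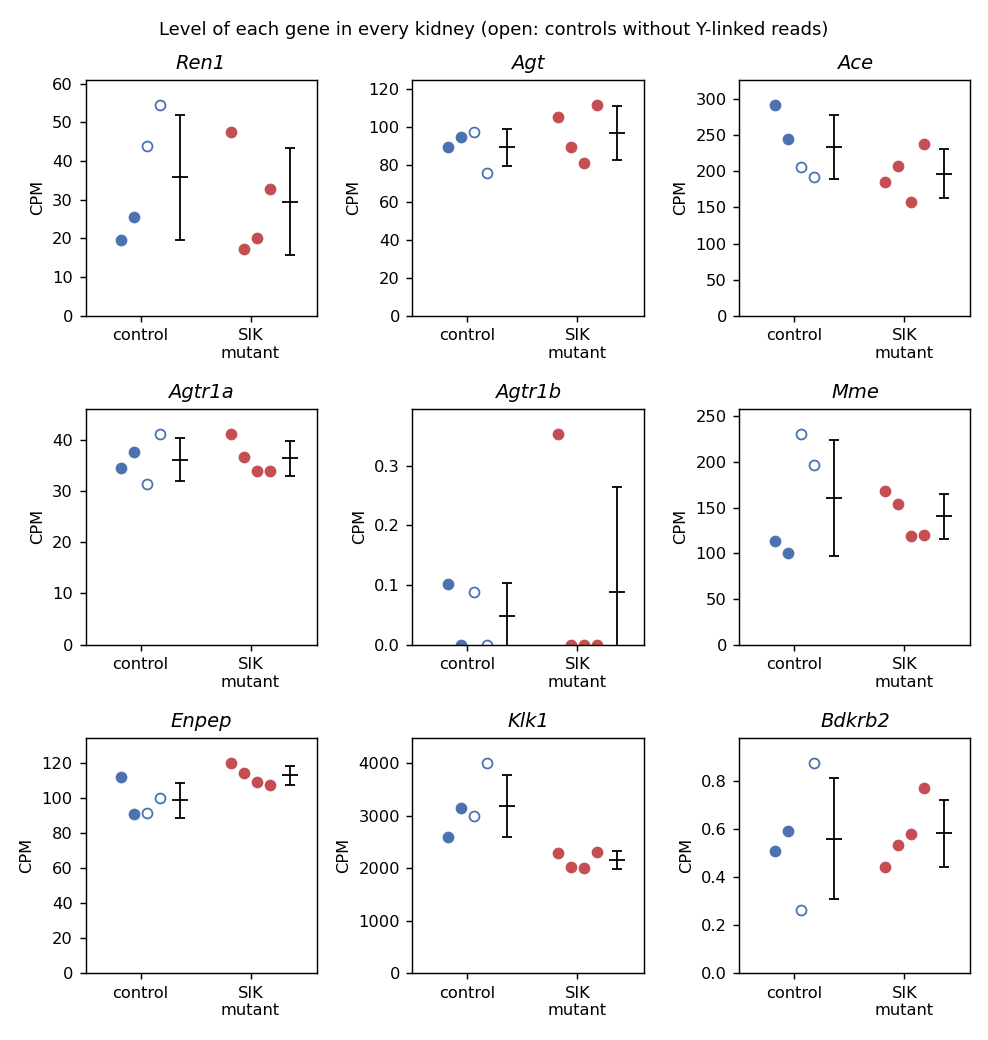
Level of each of the 9 genes in CPM (scaled counts, linear axes from 0) in 4 control (blue) and 4 SIK mutant (red) kidneys, with the mean and SD of each group in black. Open points are control 3 and control 4, which lack Y-linked reads. The 4 Klk1 values in mutants, 2007 to 2312 CPM, lie below all 4 controls, and the groups overlap for the other 8 genes.

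The stretch just before the transcription start is shown for 3 genes, Ren1 and Agt as the enzyme and substrate that begin the angiotensin cascade, and Klk1 as the member whose CPM did not overlap between the groups. These are the 100 bases upstream of the RefSeq start site (build GRCm38.p6), printed 5′ to 3′ on the strand of the gene, with any TATA box (the letters TATAAA) in capitals.
Ren1, chr1:133350574-133350673, plus strand: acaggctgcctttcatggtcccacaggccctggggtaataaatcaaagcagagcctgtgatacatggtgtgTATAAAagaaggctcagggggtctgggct
Agt, chr8:124569707-124569806, minus strand: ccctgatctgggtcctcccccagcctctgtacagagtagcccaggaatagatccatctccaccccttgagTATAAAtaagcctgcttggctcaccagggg
Klk1, chr7:44225260-44225359, plus strand: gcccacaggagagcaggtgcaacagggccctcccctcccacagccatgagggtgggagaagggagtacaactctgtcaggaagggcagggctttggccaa

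The TATA box begins 29 bases before the start in Ren1, 30 bases before it in Agt and 31 bases before it in Agtr1b. RefSeq windows were at hand for 8 of the 9 genes, 11 windows in all because Mme and Ace have more than 1 start, and 3 of the 11 held TATAAA on the gene's strand in the 100 bases upstream, against 3.8% of 32851 windows of the same kind. The cAMP response element was also searched for, since cAMP acts on the SIKs, in the whole window of 250 bases before and 50 bases after the start. On either strand, TGACGTCA was in no member's window, against 1.79% of all windows, and its shorter part TGACG was likewise in none, against 20.8% of all windows. These are matches of letters within short windows and were set beside no measure of binding.

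Levels of different genes were compared in TPM, RSEM's abundances per transcript, which allow for transcript length. Klk1 was far above the rest, at 3168 to 5981 TPM with a median of 3355 TPM over the 8 kidneys, and its median was 58.4 times that of Agt, the next in order. Agt (median 57.4 TPM) and Ace (54.9 TPM) overlapped, and Agt was the higher in 5 of 8 kidneys. A step of 2.005 times in the median, with no overlap between the ranges, led down to Enpep. Enpep (median 27.4 TPM), Mme (26.2 TPM), Ren1 (20.6 TPM) and Agtr1a (18.6 TPM) were neighbours whose ranges overlapped. Both remaining receptors were near the limit of detection, Bdkrb2 at 0.08 to 0.27 TPM and Agtr1b at 0 to 0.2 TPM. Klk1 was sampled by 20723 to 45740 reads per kidney and the kinin receptor gene Bdkrb2 by 3 to 10 reads.

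**Figure D2:**
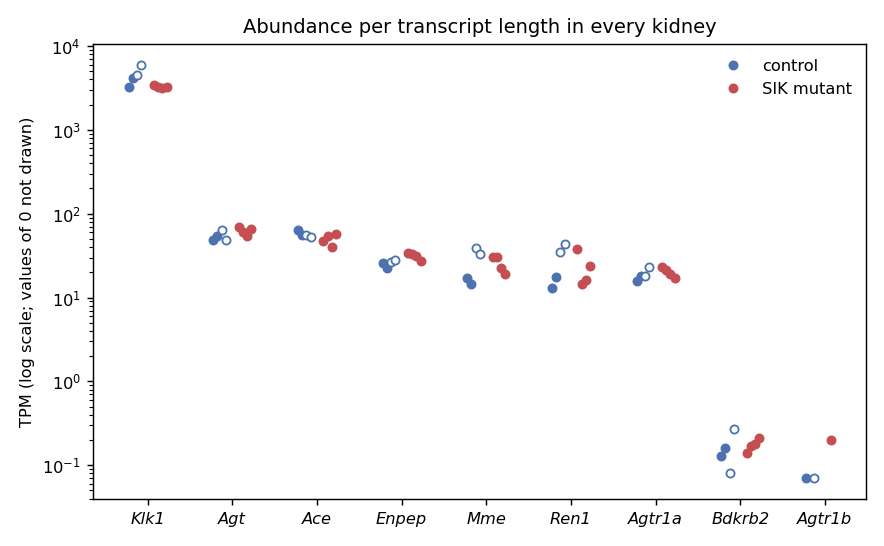
Abundance of the 9 genes in TPM (log axis) in each control (blue) and SIK mutant (red) kidney, in order of the median, with open points for control 3 and control 4 and values of 0 left out. Klk1 lies at 3168 TPM or above in every kidney, the angiotensin genes lie between 12.9 and 69.5 TPM, and Bdkrb2 and Agtr1b lie at or below 0.27 TPM.

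Angiotensinogen is the only known precursor of the angiotensins, and within the kidney it is made mainly in the proximal tubule. Agt (chromosome 8, 124556534 to 124569706, minus strand) was at 89.2, 94.7, 97.2 and 75.3 CPM in controls 1 to 4 and at 105, 89.1, 81.0 and 112 CPM in mutants 1 to 4. The lowest kidney was control 4 and the highest mutant 4, with the groups overlapping in between. The log2 fold change was 0.12 (SE 0.124, edgeR FDR 0.917), and 0.08 over the 6 kidneys with Y-linked reads. Adipocytes also make angiotensinogen. The summed level of 7 adipocyte markers was 40.7, 47.7 and 80.2 CPM in controls 1, 2 and 4, 248 CPM in control 3 and 190 to 292 CPM in the mutants, and Adipoq, which defines these cells, was at 0 to 18.8 CPM in controls and 13.8 to 21.6 CPM in mutants. Their part in the Agt values was not tested. Relative to the summed level of 8 proximal tubule markers, the log2 ratio of Agt was −7.10 ± 0.293 (SD) in controls and −6.95 ± 0.255 in mutants (n = 4 each, two-sided exact permutation p = 0.429). Of these 8 markers 1 was lower in the mutants without overlap, against 2.39% of all tested genes, and the lowest edgeR FDR was 0.0697. DESeq2 called 1 of them, against 0.387% of the genes it adjusted, so this sum is not free of the genotype.

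Renin is the enzyme whose release sets the pace of the cascade. Ren1 (chromosome 1, 133350510 to 133360325, plus strand) was the most variable tested member of the angiotensin system, at 19.5, 25.5, 43.8 and 54.5 CPM in controls 1 to 4 and 47.5, 17.3, 19.95 and 32.8 CPM in mutants 1 to 4. Control 3, control 4 and mutant 1 were the high kidneys, while controls 1 and 2 lay with mutants 2 and 3 at the low end. The mean was 35.8 ± 16.2 CPM (SD) in controls and 29.4 ± 13.8 CPM in mutants, with a log2 fold change of −0.29 (SE 0.382, edgeR FDR 0.937). It was −0.62 without mutant 1 and −0.013 without control 4. Over the 6 kidneys with Y-linked reads the sign turned, to 0.40 (SE 0.379, edgeR FDR 0.722). In both sets the difference was within the spread among kidneys of the same genotype.

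Renin cells are specialised cells of the arteriolar wall, and the markers of those cells and their mural neighbours varied too. The summed level of 8 renin and mural cell markers, among them Akr1b7, Acta2, Rgs5 and Pdgfrb, was 87.3 to 181 CPM in controls and 96.4 to 231 CPM in mutants. It was highest in mutant 1, the mutant with the most Ren1. Per unit of these markers, the log2 ratio of Ren1 was −2.16, −2.43, −1.67 and −1.73 in controls 1 to 4 and −2.28, −2.95, −2.27 and −2.04 in mutants 1 to 4. Control 3 and control 4 had the highest ratios, and the groups overlapped (difference in means −0.39, exact permutation p = 0.229). Without control 3 and control 4 the difference was −0.09.

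Some mouse strains carry a duplicated renin gene, Ren2, whose transcript closely resembles that of Ren1. The annotation used here lists no Ren2 and the labels give no strain, so reads from such a copy, if present, could not be separated from Ren1. The adrenal gland, which lies against the kidney, was checked as another tissue that expresses parts of this system: Cyp11b1 and Cyp11b2, the defining enzymes of its cortex, had 0 counts in all 8 kidneys, and 6 cortex markers summed to 1.73 to 3.68 CPM in controls and 1.87 to 2.91 CPM in mutants.

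Angiotensin-converting enzyme makes angiotensin II and destroys kinins, and in the kidney it sits on the proximal brush border and on endothelium. Ace (chromosome 11, 105967945 to 105989964, plus strand) was at 292, 245, 206 and 192 CPM in controls 1 to 4 and 185, 207, 158 and 239 CPM in mutants 1 to 4. Controls 1 and 2 were the highest kidneys and mutant 3 the lowest, while control 3 and control 4 fell within the range of the mutants. Over all 8 kidneys the log2 fold change was −0.25 (SE 0.164, edgeR FDR 0.851). Over the 6 kidneys with Y-linked reads all 4 mutants lay below both controls, with a log2 fold change of −0.44 (SE 0.155, edgeR FDR 0.366), a difference that had an unadjusted p under 0.05 but did not pass the FDR threshold. Such a separation was common among these 6 kidneys: 11.5% of all tested genes were lower in every mutant than in both controls and 10.3% were higher, and the smallest permutation p that 2 against 4 allows is 0.133.

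Against proximal tubule markers, the log2 ratio of Ace was −5.73 ± 0.114 in controls and −5.93 ± 0.258 in mutants (exact permutation p = 0.143). Mutant 3 was the lowest at −6.31, and the other 3 mutants lay between −5.85 and −5.77, inside the range of the controls. Over the 6 kidneys with Y-linked reads the difference in this ratio was −0.16 (exact permutation p = 0.533). The summed proximal tubule markers were themselves at 14827, 14402, 10114 and 10267 CPM in controls 1 to 4 and at 10662 to 13120 CPM in the mutants. Their part in the Ace values was not tested further.

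Aminopeptidase A and neprilysin degrade angiotensin on the tubule surface. Enpep, which encodes aminopeptidase A, the enzyme that shortens angiotensin II to angiotensin III (chromosome 3, 129269175 to 129332720, minus strand), was at 112, 90.9, 91.3 and 99.8 CPM in controls and 120, 114, 109 and 107 CPM in mutants. Controls 2, 3 and 4 were below every mutant, and control 1 lay inside the mutant range. The log2 fold change was 0.19 (SE 0.0906, edgeR FDR 0.790), with an unadjusted p above 0.05. Scaling by library totals, without TMM factors, gave 0.25 (edgeR FDR 0.726) with an unadjusted p under 0.05, beside a median of 0.045 over all tested genes. DESeq2 (0.20, FDR 0.937) and limma on the log2(TPM + 1) scale (0.29, FDR 0.587) also had an unadjusted p under 0.05. This call on Enpep thus depended on the scaling and on the tool. Without control 3 and control 4 the edgeR log2 fold change was 0.16 (SE 0.108, edgeR FDR 0.614).

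Neprilysin cleaves angiotensin I, kinins and natriuretic peptides. Mme, its gene (chromosome 3, 63241537 to 63386030, plus strand), was at 114, 99.7, 231 and 197 CPM in controls 1 to 4 and 168, 154, 119 and 120 CPM in mutants 1 to 4. Here both controls without Y-linked reads exceeded all other kidneys, as 10.7% of all tested genes did, and Mme was the 1 member of 7 for which this held. The log2 fold change was −0.19 (SE 0.263, edgeR FDR 0.939) over 8 kidneys and 0.41 (SE 0.162, edgeR FDR 0.407) over 6, where the 4 mutants were above both controls, as for 10.3% of all tested genes. The direction for Mme turned without these 2 kidneys. It also turned on the log2(TPM + 1) scale, where the log2 fold change was 0.07 (limma FDR 0.962), below the median of 0.09 over all tested genes on that scale, with means of 25.9 ± 12.0 TPM in controls and 25.5 ± 5.56 TPM in mutants.

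In the 6-kidney comparison 1 of 7 members, Mme, was higher at an unadjusted edgeR p under 0.05, against 6.4% of all tested genes, and 2 of 7, Ace and Klk1, were lower, against 4.74%. None passed the FDR threshold there, which 0.143% of all tested genes did.

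**Figure D3:**
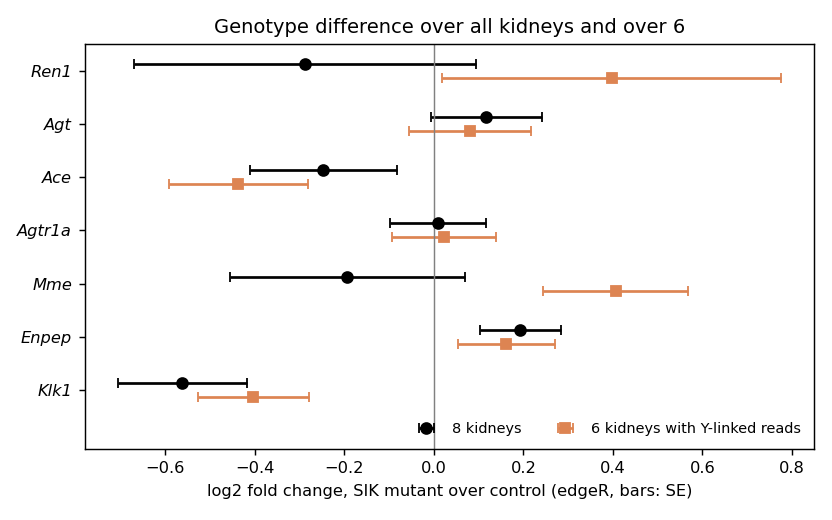
Log2 fold change of the 7 tested genes, SIK mutant over control, with the SE from edgeR, over all 8 kidneys (black circles) and over the 6 kidneys with Y-linked reads (orange squares). Ren1 and Mme change sign between the 2 sets, at −0.29 and 0.40 for Ren1 and −0.19 and 0.41 for Mme, while Klk1 is negative in both.

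Angiotensin II acts mainly through AT1 receptors, which rodents encode in a pair of genes. Agtr1a (chromosome 13, 30336441 to 30382867, plus strand), the main form in mouse kidney, was at 34.4, 37.6, 31.3 and 41.1 CPM in controls and 41.0, 36.6, 33.9 and 33.9 CPM in mutants. Its fold change was the smallest of the 7 tested members, with means of 36.1 ± 4.22 CPM and 36.3 ± 3.38 CPM and a log2 fold change of 0.0086 (SE 0.108, edgeR FDR 0.994). Its log2 ratio to the renin and mural cell markers was −1.87 ± 0.378 in controls and −1.97 ± 0.408 in mutants (exact permutation p = 0.714).

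Agtr1b (chromosome 3, 20314473 to 20367177, minus strand) had 1 read in control 1, 1 in control 3 and 4 in mutant 1. It had 0 reads in the other 5 kidneys, where up to 3 reads, or 0.263 to 0.296 CPM, cannot be told from none. The annotated transcripts of both receptors are 80.0% identical over 2011 aligned bases, with a longest shared run of 66 bases, and the deposited posterior SD of the read count was 0 for both. Agtr1b did not pass the filter and was not tested.

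Tissue kallikrein, the product of Klk1, is secreted by the connecting tubule into urine, where it frees kinins from kininogen. Klk1 (chromosome 7, 44225360 to 44229618, plus strand) was at 2595, 3143, 2986 and 4005 CPM in controls 1 to 4 and 2283, 2021, 2007 and 2312 CPM in mutants 1 to 4. All 4 mutants lay below the lowest control, and the mutants were close together, whereas control 4 was well above the other controls. The means were 3182 ± 595 CPM (SD) in controls and 2156 ± 164 CPM in mutants (two-sided exact permutation p = 0.0286, the smallest that 4 against 4 allows).

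By edgeR the log2 fold change of Klk1 was −0.56 (SE 0.144), a level 32.3% lower, with an FDR of 0.474 over all genes tested. DESeq2 gave −0.55 with an FDR of 0.0234 and so placed 1 of the 8 members it adjusted, Klk1, among its lower calls, which made up 0.245% of the genes it adjusted (0.387% in both directions). Without control 3 and control 4 the log2 fold change was −0.40 (SE 0.124, edgeR FDR 0.314), all 4 mutants lay below both controls, as for 11.5% of all tested genes, and the DESeq2 FDR was 0.0574. Klk1 was lower under each of 25 alternative settings, from −0.65 to −0.40, and DESeq2 on all 8 kidneys was the only 1 of them to pass the FDR threshold.

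With RLE size factors in place of TMM the groups again did not overlap (difference in means −1015 CPM, exact permutation p = 0.0286), but without such a factor they did. As CPM of the library total without these factors, Klk1 was at 2345, 2933, 3148 and 4198 in controls and 2402, 2119, 2040 and 2214 in mutants, so that mutant 1 passed control 1 (exact permutation p = 0.0571, edgeR log2 fold change −0.52, FDR 0.653). On this scale the groups overlapped for all 7 tested members, while 0.977% of all tested genes were lower and 3.04% higher without overlap. In TPM the values were 3249, 4164, 4473 and 5981 in controls and 3461, 3208, 3168 and 3224 in mutants, and again mutant 1 lay above control 1 (exact permutation p = 0.0571). The log2 fold change on the log2(TPM + 1) scale was −0.42 (limma FDR 0.587), beside a median of 0.09 over all tested genes on that scale. Control 2, control 3 and control 4 exceeded every mutant on all 3 scales.

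A ratio within a kidney does not depend on such scaling. Set against 6 markers of the distal convoluted and connecting tubule, the log2 ratio of Klk1 was 1.08, 1.07, 1.15 and 1.07 in controls 1 to 4 and 0.49, 0.54, 0.35 and 1.05 in mutants 1 to 4. The controls were nearly identical, 3 mutants were far below them, and mutant 4 was just below the lowest control. The difference of −0.49 between the means, 1.09 ± 0.0401 and 0.605 ± 0.304, had an exact permutation p of 0.0286 (two-sided), and 0.257 after Benjamini-Hochberg adjustment over the 9 ratios tested. The other 8 ratios had unadjusted p-values from 0.143 to 0.857.

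The 6 markers did not move together, so the ratio depends on which of them are used. Trpm6, the magnesium channel of the distal convoluted tubule, was at 17.7 to 23.8 CPM in controls and 9.53 to 16.3 CPM in mutants (log2 fold change −0.72, SE 0.171, edgeR FDR 0.434). Trpv5, the calcium channel of the connecting tubule, was at 14.6 to 22.7 CPM in controls and 19.3 to 27.7 CPM in mutants (log2 fold change 0.39, edgeR FDR 0.768). Calb1, also of the connecting tubule, had a log2 fold change of 0.13 and Slc12a3, the thiazide-sensitive cotransporter, one of −0.28. The study's text names Trpv5 and Calb1 as genes induced by active vitamin D, and reports changes in their renal expression in SIK mutants. The marker sum, and with it the ratio of Klk1, is therefore not free of the genotype. Summed, the 6 markers held 1229 to 1912 CPM in controls and 1119.8 to 1630 CPM in mutants, and their part in the Klk1 difference was not tested beyond this ratio.

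**Figure D4:**
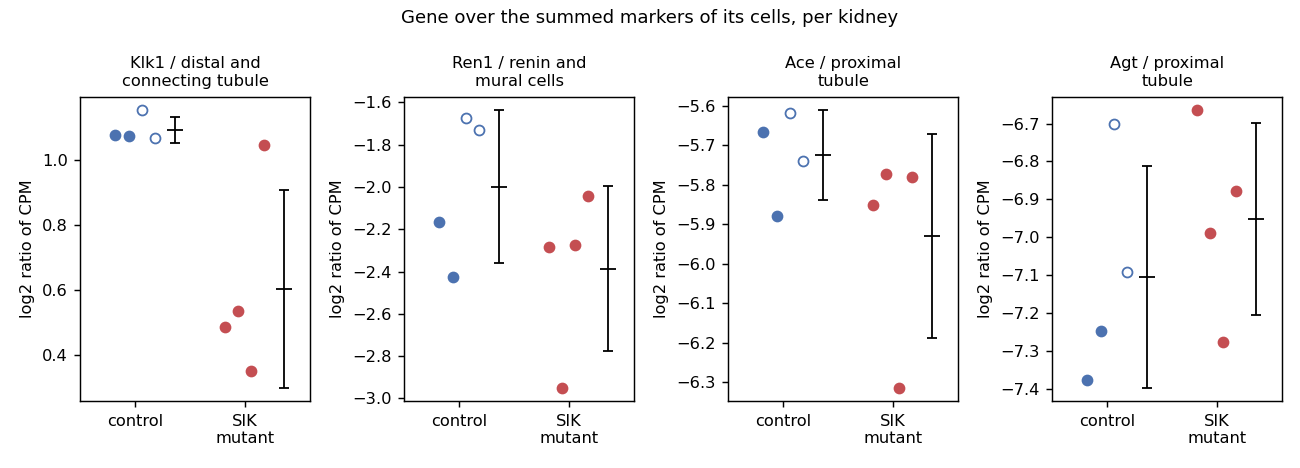
Log2 ratio of the CPM of 4 genes to the summed CPM of a set of segment or cell type markers, in each control (blue) and SIK mutant (red) kidney. The mean and SD are in black, and open points are control 3 and control 4. The set for Klk1 covers the distal convoluted tubule as well as the connecting tubule. For Klk1 the controls lie between 1.07 and 1.15 and the mutants between 0.35 and 1.05, and for Ren1, Ace and Agt the groups overlap. The vertical axes do not start at 0.

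Klk1 belongs to a cluster of related genes on chromosome 7, so reads could be divided among copies. The 13 Klk1b paralogs in the annotation share 82.0 to 94.2% of aligned bases with it, and the closest, Klk1b5, shares 94.2% of 954 aligned bases with Klk1 and a longest identical run of 145 bases. The 13 paralogs together held 7.93 to 10.2 CPM in controls and 7.33 to 10.5 CPM in mutants, and adding them to Klk1 changed the difference in means from −1026 to −1027 CPM. The deposited posterior SD of the Klk1 read count was at most 0.68 reads. Gm10109, on the opposite strand of the same interval, held at most 1.58 CPM, and the sources used here do not say whether strand was used in counting.

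The B2 receptor carries the main effects of kinins in the healthy kidney. Bdkrb2 (chromosome 12, 105563226 to 105595237, plus strand) had 5, 6, 3 and 10 reads in controls 1 to 4 and 5, 6, 6 and 8 reads in mutants 1 to 4, or 0.560 ± 0.252 CPM and 0.582 ± 0.138 CPM. It did not pass the filter of edgeR, and the CPM of the groups overlapped (exact permutation p = 0.914). Against 6 principal cell markers of the collecting duct its log2 ratio was −10.4 ± 0.939 in controls and −10.5 ± 0.217 in mutants (exact permutation p = 0.857).

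Across the wider pathways, 59 other genes were read from the same fit and 37 of them were tested, 19 with positive and 18 with negative fold changes and a median log2 fold change of 0.00037. None passed the FDR threshold, and none separated the groups without overlap, against 4.02% of all tested genes. An unadjusted p under 0.05 was found for 2 of the 37, against 6.36% of all tested genes. With library totals 1 of the 37, Nln, for neurolysin, was higher in all 4 mutants without overlap, against 3.04% of all tested genes (log2 fold change 0.28, edgeR FDR 0.653), and it was picked out after its values were seen. With TMM factors its log2 fold change was 0.23 (edgeR FDR 0.781) and the groups overlapped. Among 18 other angiotensin genes, which make, trim, bind or degrade the peptides, 13 were tested, 8 higher and 5 lower (median 0.03). There was no unadjusted call among them in either direction, against 6.36% of all tested genes. The 3 most abundant were Ctsa, for cathepsin A (log2 fold change 0.01), Anpep, for aminopeptidase N, which shortens angiotensin III (−0.26), and Agtrap, whose product binds the AT1 receptor (−0.11). Without control 3 and control 4, Anpep (−0.42, edgeR FDR 0.341) and Agtrap (−0.33, edgeR FDR 0.313) were lower in all 4 mutants than in both controls, as for 11.5% of all tested genes. In 5 of the 13 tested genes, Mas1, Dpp3, Prcp, Prep and Nln, both controls without Y-linked reads lay below all other kidneys, beside 13.1% of all tested genes.

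Of 11 other kinin genes 8 were tested, 1 with a positive and 7 with a negative fold change (median −0.25). Cpb2, which encodes a carboxypeptidase that removes the last residue of kinins, was at 2.64, 2.37, 6.25 and 4.64 CPM in controls and 2.74, 2.68, 1.07 and 2.02 CPM in mutants (log2 fold change −0.90, SE 0.386, edgeR FDR 0.768). Its high kidneys were control 3 and control 4, and without them the log2 fold change was −0.22 (edgeR FDR 0.860). In 6 of the 8 tested genes, Kng2, Klkb1, Cpn1, Cpb2, Xpnpep1 and Xpnpep2, both controls without Y-linked reads lay above all other kidneys, beside 10.7% of all tested genes. Over the other 6 kidneys the median log2 fold change of the list was 0.05, with 6 of 8 genes above 0. Kng2, the kininogen that supplies the substrate of kallikrein, was at 174, 165, 277 and 256 CPM in controls and 156 to 197 CPM in mutants. Xpnpep1, an aminopeptidase that inactivates bradykinin, and Cpd, a membrane carboxypeptidase, had log2 fold changes of −0.19 and 0.12.

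The Klk1b paralogs were scarce in kidney, and only Klk1b5 and Klk1b9 were tested, with log2 fold changes of −0.07 (edgeR FDR 0.979) and −0.51 (edgeR FDR 0.888). Klk1b3, the next of them by level, stayed between 0.535 and 1.16 CPM in every kidney.

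Among 17 genes that act on renin synthesis or release, 14 were tested, 10 higher and 4 lower (median 0.09). Ptges, which makes prostaglandin E2, a stimulus to renin release, was at 24.0, 21.7, 30.6 and 38.2 CPM in controls and 51.0, 37.1, 48.7 and 36.5 CPM in mutants. Control 4 exceeded mutants 2 and 4, and the other 3 controls were below every mutant. The log2 fold change was 0.60 (SE 0.189, edgeR FDR 0.672), which made it the 1 higher gene of the list at the unadjusted threshold, against 2.76% of all tested genes. Without control 3 and control 4 it was 0.93 (SE 0.172, edgeR FDR 0.106). DESeq2 over all kidneys gave Ptges an FDR of 0.282. DESeq2 without control 3 and control 4, a setting added after the data were seen, gave Ptges an FDR of 0.000442. In that setting DESeq2 called 185 of the 24390 genes that it fitted over the whole table. Summed collecting duct principal cell markers were at 668, 530, 921 and 755 CPM in controls 1 to 4 and at 692 to 992 CPM in mutants, so that they too were higher in every mutant than in controls 1 and 2, and their part in the Ptges values was not tested.

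The 3 most abundant genes of the renin list were Vdr, the vitamin D receptor (log2 fold change 0.09), Adcy6, an adenylyl cyclase of renin and tubule cells (−0.02), and Nr1h3, a nuclear receptor for oxysterols (−0.07). In the 6-kidney fit 5 of 14 genes of this list were higher at the unadjusted threshold, against 6.4% of all tested genes, and none passed an FDR of 0.05 by edgeR. Besides Ptges and Adcy6 (0.40) these were Adcy5 (0.71), Casr, the calcium-sensing receptor (0.62), and Creb1, the transcription factor that answers to cAMP (0.42), of which Adcy5, Casr and Creb1 were chosen after their values were seen. Markers of several cell types also had mostly positive fold changes in that fit, but those of the proximal and distal tubule did not. Fold changes were above 0 for 6 of 6 collecting duct markers (median 0.45, 3 of them at the unadjusted threshold), 6 of 6 endothelial, 4 of 4 podocyte and 6 of 8 renin and mural cell markers (median 0.38). Only 2 of 8 proximal tubule markers (median −0.09) and 3 of 6 distal and connecting tubule markers (median 0.06) were above 0. At the unadjusted threshold 2 proximal tubule markers were lower, while 2 distal and connecting tubule markers were higher and 1 was lower. All 7 adipocyte markers were above 0 (median 5.74), and 5 of them passed an FDR of 0.05 by edgeR. The part of these cells in the values of the renin list was not tested.

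**Figure D5:**
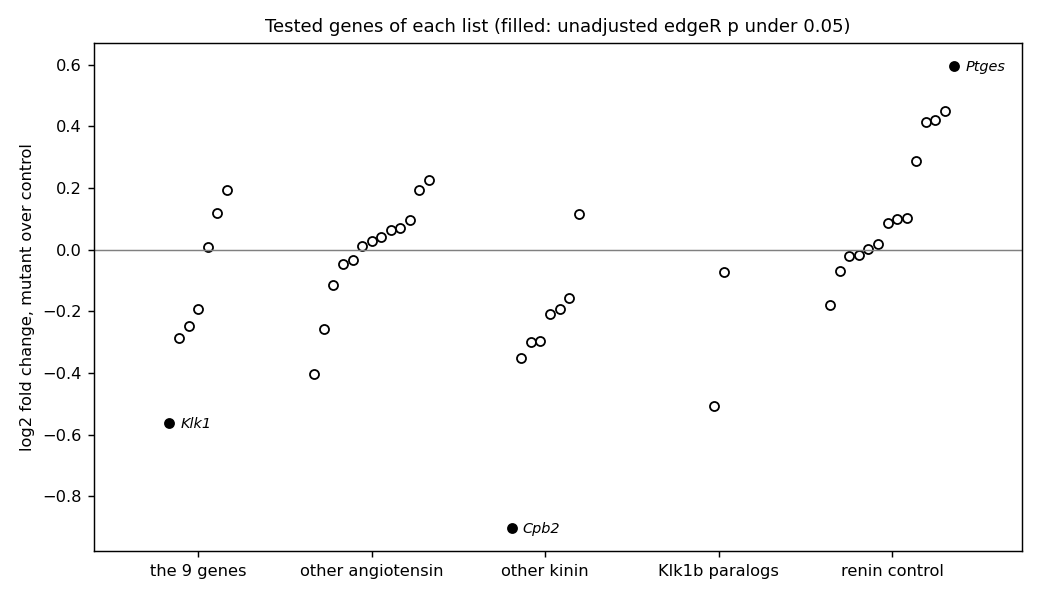
Log2 fold change over 8 kidneys, SIK mutant over control, of each tested gene of the 9 and of 4 lists of related genes, 1 point per gene. Filled points have an unadjusted edgeR p under 0.05, namely Klk1 at −0.56, Cpb2 at −0.90 and Ptges at 0.60, and none passes an FDR of 0.05.

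The members did not rise and fall together over the kidneys. Pearson correlations of log2 CPM between the 7 tested members, each over 8 kidneys and given as a description, ran from −0.69 for Klk1 with Enpep to 0.67 for Mme with Ren1. The genes most like each member were sought among 11069 tested genes with a mean of at least 5 CPM. Ren1 was followed most closely by Gstk1 (r = 0.984), Slc2a8 (0.979) and Cela1 (0.962), and Klk1 by Ces2g (0.964), Gcgr (0.958) and Igfals (0.950). Mme was followed by Slc12a4 (0.989), Tek (0.980) and Tspan12 (0.978), and Ace by Tyw3 (0.983), Psmg4 (0.978) and Atp6v0c (0.960). For the other members the best matches were Gm43667, Dctpp1 and Gde1 for Agt, Lgmn, 1810013L24Rik and Atf1 for Agtr1a, and Rlf and Senp6 among those for Enpep, with r between 0.917 and 0.982. The genes correlated share the same 8 libraries, in which control 3 and control 4 lie apart from the rest.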

How the data were processed

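RNA was measured in whole kidneys of 4 control and 4 SIK mutant mice on a BGISEQ500 instrument, with groups and numbering as in the sample titles and genotypes. The submitters' processing notes name FastQC, STAR 2.7.2b, RSEM 1.3.0, DESeq2 and the build mm10. The annotation and the strand setting are not given in the sources used here. For each kidney the authors deposited RSEM's expected counts, its posterior mean counts (also estimated counts), and TPM values, scaled to transcript length and library. The deposited posterior SDs, TPM bounds and lengths (scores without a fixed range) are RSEM's as well. The TPM bounds were not used. Gene identifiers were matched to GENCODE M21 (GRCm38), 54349 of 55401 with their version and 55141 without it.

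Expected counts were rounded and tested with edgeR 4.0.16 under R 4.3.3 by quasi-likelihood (TMM factors, filterByExpr, legacy defaults), with Benjamini-Hochberg adjustment over all 14326 genes tested. The main test was edgeR without covariate or block. DESeq2 1.42.0, the tool that the submitters' notes name, and limma 3.58.1 were alternatives. Single values were compared with two-sided exact permutation tests over the 70 assignments of 8 kidneys (SciPy 1.17.1). The labels do not say that the kidneys came from separate litters, so p-values measure the spread between these samples. Replicates differed by more than sampling noise, with a chi-square per degree of freedom of 9.06 to 49.5 over 12 pairs. On simulated counts of 14326 genes in the 4 against 4 design, edgeR recovered 80% of 200 genes changed by a fold of 2, with 9 false calls. The simulation gave every gene the same dispersion (spread between replicates), changed only genes with higher counts, and held no split within the controls. The 80% is therefore a check of the code and does not measure the power in these kidneys.

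The members, lists and tests were chosen with earlier results of these data known. All 9 members are named. Of the 4 related lists, genes past an FDR or unadjusted p of 0.05, genes whose groups do not overlap, and the 3 highest in mean CPM are named, as are the 3 genes most correlated with each member. Promoter windows are from RefSeq on GRCm38.p6, and transcripts were aligned with Biopython 1.88. Alternatives covered scaling, filter, tool, pseudocount, count type, block, Y-linked covariate and left-out kidneys. Library totals, and DESeq2 with the covariate or on 6 kidneys, were added after seeing the data. A few values are not reported here.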

Additional observations from a re-analysis of the deposited data

Results flagged for a closer look

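Among 46 sets of 4 kidneys (the 9 members and the named genes of the related lists, in each group), 2 held a kidney whose gap to the rest was large for the range of its group, where chance alone gives about 2.3. Agtr1b was at 0.353 CPM in SIK mutant 1, from 4 reads, while the other 3 mutants had 0 CPM. Cpd was at 101.758 CPM in control 2, and the other 3 controls lay between 112 and 113 CPM.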

How the results depend on the processing

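Of 888 values recomputed under alternatives for 46 results, 752 kept their direction and their side of the threshold. Over the whole table, where the main test called 0 genes, DESeq2 called 71, limma-voom 2, limma on TPM 4 with a pseudocount of 1 and 5 with one of 0.1, no filter 9, posterior mean counts 3, legacy off 1, the Y-linked covariate 15, the 6 kidneys with Y-linked reads 21, and DESeq2 with that covariate 193 or on those 6 kidneys 185. Leaving out 1 kidney gave 0 to 1. Member genes called stayed at 0 except with DESeq2 (1, Klk1), and related genes called stayed at 0 except for Ptges (1) with DESeq2 under the Y-linked covariate or on 6 kidneys. The causes of these differences were not tested.

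The replicate numbers did not pair the kidneys: same-numbered kidneys had correlated deviations of −0.17, 0.05, 0.06 and −0.32, and the labels name no litter. With the replicate block edgeR called 0 genes, with 657 rather than 911 at the unadjusted threshold, and gave −0.55 for Klk1.

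Member levels between groups gave 1 gene (Klk1), and members relative to segment markers 1 ratio (that of Klk1). Both counts were 0 with 6 kidneys and 0 to 0 with any 1 kidney left out, designs whose smallest p are 0.133 and 0.0571, so those p-values say nothing about stability. With RLE size factors both stayed at 1, and with library totals the first count was 0. The difference in mean Klk1 was −962 CPM with library totals, −713 CPM with 6 kidneys and −1222 to −752 CPM with 1 kidney left out, and its ratio −0.47 with 6 kidneys and −0.64 to −0.40 with 1 left out.

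Signs turned for fold changes that passed no FDR threshold, although Mme and Adcy6 had an unadjusted p under 0.05 on 6 kidneys, and leaving out the 2 controls without Y-linked reads turned most. With the Y-linked covariate and on 6 kidneys, by edgeR and then by DESeq2, Ren1 was 0.40, 0.40, 0.40 and 0.39, Mme 0.41, 0.41, 0.41 and 0.40, Adcy6 0.40, 0.40, 0.40 and 0.40, Kng2 0.075, 0.076, 0.076 and 0.071, Vdr −0.14, −0.13, −0.14 and −0.13, and Ctsa −0.099, −0.090, −0.097 and −0.095. Xpnpep1 was 0.0011, 0.0034 and 0.0029 under the first 2 and the DESeq2 covariate. In TPM (pseudocounts 1 and 0.1), where the median of all tested genes was 0.09 and 0.11, Mme was 0.066 and 0.072, Agtrap 0.14 and 0.14, Klk1b5 0.014 and 0.018, Adcy6 0.21 and 0.22, and Nr1h3 0.024 and 0.024. Adcy6 was also 0.012 with library totals (median of all tested genes 0.045), 0.022 with limma-voom and 0.019 with the block, and Agtr1a −0.0033 with upper-quartile factors (median −0.016), so that the shifts common to all genes exceed these values with both scalings, and those of Mme, Klk1b5 and Nr1h3 in TPM. On 6 kidneys the CPM differences of Ren1 and Mme were 6.90 and 33.6 and the Mme ratio 0.68.

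With 1 kidney left out, log2 fold changes ran from −0.62 to −0.013 for Ren1, 0.041 to 0.19 for Agt, −0.35 to −0.12 for Ace, −0.055 to 0.077 for Agtr1a, −0.36 to 0.035 for Mme, −0.038 to 0.067 for Ctsa, −0.19 to 0.091 for Klk1b5, −0.13 to 0.14 for Adcy6 and −0.18 to 0.038 for Nr1h3. CPM differences ran from −1.39 to 1.88 for Agtr1a, −40.2 to 3.42 for Mme, −0.0767 to 0.127 for Bdkrb2 and −0.0474 to 0.0703 for Agtr1b, and log2 ratios to markers from −0.25 to 0.084 for Agtr1a, −0.57 to 0.098 for Bdkrb2 and −0.36 to 0.21 for Mme. Depth limits Agtr1b and Bdkrb2, with at most 10 reads in a kidney.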

Other observations

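A transcript length per gene, weighted by the abundance of its isoforms as RSEM estimated it, was deposited as well. This length was not itself compared above, although the TPM values allow for transcript length. For Ace it was 4384, 4408, 4261 and 4209 bases in controls 1 to 4 and 4554, 4601, 4586 and 4295 bases in mutants 1 to 4, so that 3 mutants lay above all controls and mutant 4 among them. For Mme it was 6329.5, 6683, 6667 and 6766 bases in controls and 6415, 6074, 6174 and 6350.2 bases in mutants, with control 1 within the range of the mutants. Klk1 stayed between 914 and 945 bases in all 8 kidneys. The differences in length were not tested.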
